A study of Rattus norvegicus with 10 samples.

Results

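The 26 genes described here carry out cholesterol synthesis or regulate it: 19 enzymes of the route from acetyl-CoA to cholesterol, 5 genes of the sterol-sensing machinery and 2 genes that move or esterify sterol. They were chosen by name, and all 26 were matched by exact symbol among the 32545 genes of the deposited table. Each had a mean of at least 0.5 FPKM (fragments per kilobase of gene length, scaled to library size) over all libraries, so all 26 are among the 14508 genes tested. The RNA came from kidney cortex of wildtype rats of the Dahl salt-sensitive line SS/JrHsdMcwi, an inbred line that becomes hypertensive when fed salt. All animals ate 0.4% NaCl at first, carried a telemetry implant from 8 to 9 weeks of age, and then ate 4% NaCl for 3 weeks. In 5 libraries the salty diet also held 2% oxonic acid, which blocks uricase, the rodent enzyme that breaks uric acid down, and in the other 5 it did not (vehicle). High salt is thus common to both groups, and no library from rats kept on 0.4% NaCl was analysed here. The comparison asks which of these transcripts differ in salt-loaded cortex when uricase is inhibited.

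Cells make cholesterol by condensing acetyl-CoA into mevalonate, turning mevalonate into isoprenoid units, joining these into squalene, and folding and trimming squalene through lanosterol into cholesterol. The genes of the route are driven mainly by the transcription factor SREBP2 (gene Srebf2). SREBP2 is held in the endoplasmic reticulum by SCAP and the INSIG proteins while sterol is plentiful, and is carried to the Golgi and cut free by proteases when sterol runs low. Because SREBP activity is set by this processing, the level of Srebf2 RNA is not a measure of active protein. The related SREBP1 (gene Srebf1) mainly drives fatty acid synthesis. In kidney tubules, cholesterol is a structural lipid of the brush border and of the membranes that hold transporters.

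The RefSeq promoter table (build GRCr8) matched 22 of the 26 genes, with 23 promoters since Srebf1 has 2; entries were missing for Sqle, Stard4, Fdft1 and Pmvk. The stretches below are the 250 bases before the annotated start, 5′ to 3′ on the strand of the gene. They are shown for Hmgcs1 and 4 of the genes that varied with it across libraries (Cyp51, Msmo1, Mvd and Insig1), and for Lss, the member whose groups did not overlap. Capitals mark CCAAT, the box bound by NF-Y, on either strand (on the opposite strand it reads ATTGG).
Hmgcs1, chr2:53382054-53382303, plus strand: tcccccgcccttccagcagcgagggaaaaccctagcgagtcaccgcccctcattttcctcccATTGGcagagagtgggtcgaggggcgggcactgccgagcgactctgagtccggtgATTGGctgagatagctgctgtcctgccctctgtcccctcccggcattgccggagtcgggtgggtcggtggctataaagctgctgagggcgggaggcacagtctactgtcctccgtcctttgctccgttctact
Cyp51, chr4:30991443-30991692, plus strand: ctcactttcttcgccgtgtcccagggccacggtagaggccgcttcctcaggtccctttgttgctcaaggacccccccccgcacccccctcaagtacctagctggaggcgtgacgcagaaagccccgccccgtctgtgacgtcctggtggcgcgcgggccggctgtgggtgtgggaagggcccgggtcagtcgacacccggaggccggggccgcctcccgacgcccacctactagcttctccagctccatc
Msmo1, chr16:29746863-29747112, plus strand: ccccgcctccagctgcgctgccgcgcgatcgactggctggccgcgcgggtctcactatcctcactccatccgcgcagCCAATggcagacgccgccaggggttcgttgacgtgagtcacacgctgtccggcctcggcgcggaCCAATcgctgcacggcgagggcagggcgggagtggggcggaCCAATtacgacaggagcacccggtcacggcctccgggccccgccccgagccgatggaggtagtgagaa
Mvd, chr19:67414975-67415224, minus strand: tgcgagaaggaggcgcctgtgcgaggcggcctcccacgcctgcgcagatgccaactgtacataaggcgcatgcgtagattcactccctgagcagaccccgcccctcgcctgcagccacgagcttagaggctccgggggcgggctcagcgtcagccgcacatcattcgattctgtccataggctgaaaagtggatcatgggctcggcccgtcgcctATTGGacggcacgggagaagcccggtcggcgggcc
Insig1, chr4:8057770-8058019, minus strand: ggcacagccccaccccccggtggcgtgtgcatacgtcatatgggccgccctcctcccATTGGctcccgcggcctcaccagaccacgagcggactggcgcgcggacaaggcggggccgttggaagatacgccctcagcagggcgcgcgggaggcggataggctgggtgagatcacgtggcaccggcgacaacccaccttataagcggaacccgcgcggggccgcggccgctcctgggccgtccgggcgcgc
Lss, chr20:12118231-12118480, minus strand: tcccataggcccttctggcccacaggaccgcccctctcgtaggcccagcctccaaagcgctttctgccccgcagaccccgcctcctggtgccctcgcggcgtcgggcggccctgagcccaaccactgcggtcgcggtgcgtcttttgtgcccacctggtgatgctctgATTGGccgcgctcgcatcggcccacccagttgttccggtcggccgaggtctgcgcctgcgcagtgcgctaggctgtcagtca
CCAAT or its complement was present in 19 of the 23 promoters (82.6%), against 34.0% of all 33469 promoters of the table and 34.6% of the 10762 promoters of genes tested. Hmgcs1 held 2 such boxes, Msmo1 held 3, and Mvd, Insig1 and Lss held 1 each; none lay in this stretch of Cyp51. GGGCGG, the GC box, was found on either strand in 20 promoters (87.0%), against 30.5% of all promoters and 56.4% of those of genes tested. The E box CACGTG was in 3 (Insig1, Sc5d and Scap; 13.0%, against 5.59% of all). A sterol regulatory element core searched as TCACNCCAC on both strands was in none of the 23, and was in 0.974% of all promoters. With so rare a match, its absence from 23 promoters says little about these genes. Only exact matches were counted, so variants of the element were missed. The 4 motifs were searched separately, each match counted whether or not it overlapped another; the shares were not tested, and a match describes letters, not binding.

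The libraries held 14.5 to 18.5 M (mega) reads in genes, and 1 member, Hsd17b7, had as few as 70 reads in a library, whereas every other member had at least 107. The labels number the libraries without saying that each came from its own rat, so the p-values speak of spread among samples, which may in part be technical. Rats of both sexes were used in the study and the labels give no sex per library, but Y-linked transcripts were abundant in all 10, Ddx3y at 14.9 to 17.2 FPKM and Eif2s3y at 34.6 to 48.7 FPKM, so every library held male RNA and neither group had a library from females alone. Cortical markers were abundant, the proximal phosphate transporter Slc34a1 running from 1441 to 2021 FPKM. Oxonic acid library 3 held 15.98 FPKM of the inner medullary urea transporter Slc14a2, against at most 0.505 FPKM in the other 9. Vehicle library 4 stood apart on the first principal component, at 39.8 against -13.7 to 15.5 for the rest. Library numbers form 3 runs, which no label calls a batch: A with 3 oxonic acid libraries (1, 2 and 3), B with oxonic acid library 4 and vehicle libraries 1, 2 and 3, and C with oxonic acid library 5 and vehicle libraries 4 and 5. In bulk tissue, fewer cells of a type and less RNA per cell cannot be told apart.

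The sterol genes spanned a wide range of levels in cortex. Fdft1, squalene synthase, which makes the first dedicated sterol precursor, was the most abundant member per length, at 42.2 ± 5.02 FPKM under oxonic acid and 39.4 ± 2.66 FPKM under vehicle (SD, n = 5 each), in the 85.5th percentile of genes tested. Below it lay a group at about 20 to 30 FPKM (Fdps, Ebp, Scap, Insig1, Sc5d, Msmo1 and Soat1), whose ranges overlap, so that their order within the group is not resolved. Hsd17b7, the sterol ketone reductase, was the least abundant at 1.91 ± 0.116 and 1.81 ± 0.410 FPKM (SD, n = 5 each), in the 18.3rd percentile. Between the lowest and the highest library a member differed by 1.18-fold (Scap) to 1.91-fold (Hsd17b7). The plot of levels shows these steps side by side.

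**Figure D1:**
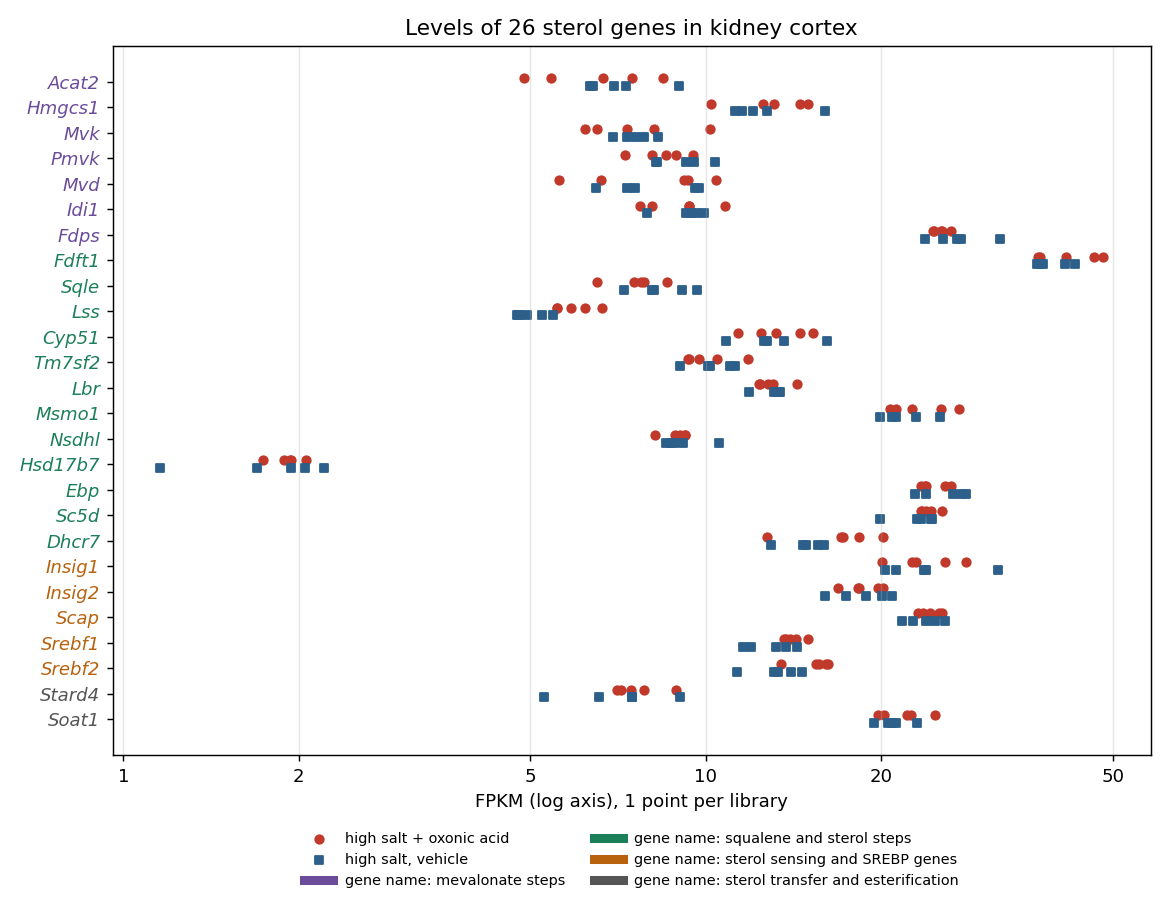
FPKM of each of the 26 genes (log axis), 1 point per library, red circles for oxonic acid and blue squares for vehicle; gene names are coloured by role. The red and blue ranges overlap for every gene but Lss, and Fdft1 and Hsd17b7 mark the ends of the range.

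With oxonic acid, transcripts of cholesterol synthesis stayed close to their vehicle levels. In limma's test on log2(FPKM + 0.5), 0 of 26 members passed an adjusted p of 0.05, as did 0% of all genes tested, and voom on the recovered reads also called 0. At an unadjusted p under 0.05 there were 2 members, Lss and Srebf2, both higher (7.69%), against 9.49% of all genes tested (4.32% higher and 5.17% lower), and voom gave 2 as well. The groups did not overlap in 1 member, Lss, against 1.91% of all genes tested (0.944% higher and 0.965% lower). Both shares rest on so few members that they are not a result about the pathway. Of the 26, 14 were higher and 12 lower, against 51.8% of all genes higher, and the median log2 difference was 0.014, against 0.0053 over all genes tested.

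The differences were bounded closely for many members. The 95% interval of the log2 difference lay inside 1.5-fold in either direction for 26 of 26 members, against 81.4% of all genes tested, and inside 1.25-fold for 18 of 26, against 47.6%. The median SE was 0.084 for members and 0.104 over all genes tested. These intervals are for single genes and are not adjusted for the number of genes. The widest belonged to Mvd (-0.38 to 0.37) and Acat2 (-0.46 to 0.18), and the narrowest to Scap (-0.09 to 0.16) and Lbr (-0.13 to 0.13).

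**Figure D2:**
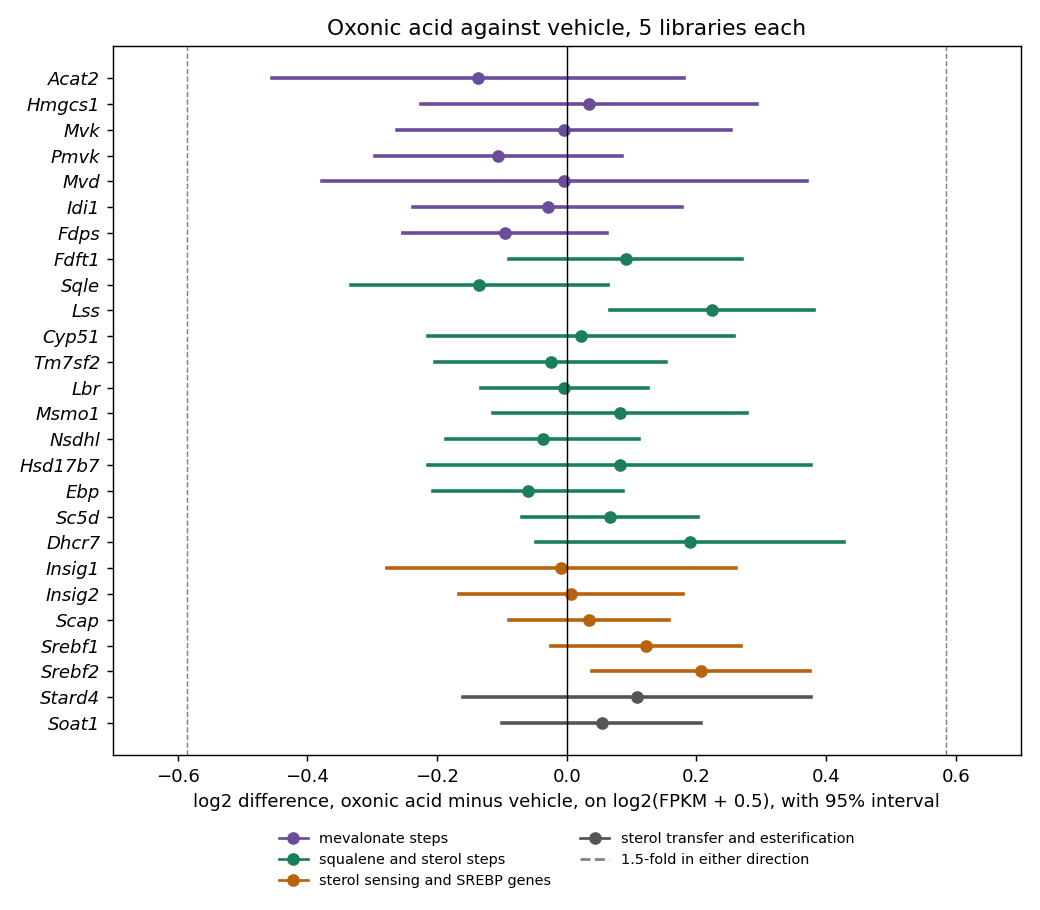
Log2 difference (oxonic acid minus vehicle) with its 95% interval for each gene, coloured by role, 5 libraries per group; dashed lines mark 1.5-fold in either direction. All 26 intervals lie between the dashed lines, and those of Lss and Srebf2 lie above 0.

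Among the genes of sterol sensing, the median log2 difference was 0.034, with 4 of 5 higher, 1 of them at an unadjusted p under 0.05. Srebf2, the driver of the synthesis genes (ENSRNOG00000007400, chromosome 7, 123381077 to 123438603, plus strand, as deposited, with no named build), measured 15.7, 16.2, 15.5, 13.5 and 16.1 FPKM in oxonic acid libraries 1 to 5. In vehicle libraries 1 to 5 it measured 13.3, 13.1, 14.0, 11.3 and 14.7 FPKM. All 5 oxonic acid values were above the vehicle median, but oxonic acid library 4 lay inside the vehicle range, so the groups overlapped. The means were 15.4 ± 1.11 and 13.3 ± 1.25 FPKM (SD, n = 5 each). The log2 difference was 0.21 (SE 0.08, 95% interval 0.04 to 0.38, unadjusted p = 0.0203, adjusted p = 0.447). Within run B the difference was 0.0025 and within run C it was 0.31; run A holds no vehicle library. With the runs as a block it was 0.15 (unadjusted p = 0.197, adjusted p = 0.800), no longer under 0.05 unadjusted. Without vehicle library 4, the lowest value, it was also 0.15.

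Srebf1, which drives fatty acid genes, went the same way by less. Its values were 13.6, 13.8, 13.9, 14.3 and 15.0 FPKM in oxonic acid libraries 1 to 5 and 11.9, 14.4, 13.2, 11.6 and 13.8 FPKM in vehicle libraries 1 to 5. Vehicle libraries 1, 3 and 4 lay below every oxonic acid value, and vehicle libraries 2 and 5 lay within the oxonic acid range. The log2 difference was 0.12 (SE 0.07, 95% interval -0.02 to 0.27, limma adjusted p = 0.575). Srebf1 overlaps Rai1 on the opposite strand (mean 4.19 FPKM), and as no source says if reads were counted by strand, its value is uncertain to that degree.

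Insig1, which retains SCAP and is itself an SREBP target, measured 23.0, 22.6, 25.8, 20.1 and 28.0 FPKM with oxonic acid and 20.3, 21.2, 23.7, 23.9 and 31.7 FPKM with vehicle. The groups overlapped over most of their range, with oxonic acid library 4 lowest and vehicle library 5 highest, above every oxonic acid value. The log2 difference was -0.0081 (95% interval -0.28 to 0.26). Insig2, the second retention protein, measured 18.7 ± 1.33 and 18.6 ± 1.96 FPKM (log2 difference 0.0065, 95% interval -0.17 to 0.18), and Scap, the escort protein, 24.3 ± 0.983 and 23.8 ± 1.59 FPKM (0.034, -0.09 to 0.16; SD, n = 5 each).

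In the main fit, without the runs as a block, transcripts of the mevalonate steps lay near their vehicle levels. Of 7 enzymes, 1 was higher and 6 lower, none at an unadjusted p under 0.05, and their median log2 difference was -0.029. With the runs as a block, Acat2 and Mvk were higher and the others, Hmgcs1 included, were lower. Hmgcs1, the synthase that makes HMG-CoA and a widely used readout of SREBP2, measured 15.0, 13.1, 12.5, 10.2 and 14.5 FPKM with oxonic acid. With vehicle it measured 11.2, 12.1, 11.6, 12.7 and 16.0 FPKM. The lowest and the highest of the 10 were oxonic acid library 4 and vehicle library 5, so each group covered most of the range of the other (log2 difference 0.035, SE 0.12, 95% interval -0.22 to 0.29, limma adjusted p = 0.939).

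Mvd, the decarboxylase that yields isopentenyl diphosphate, had the largest spread within groups of the 26, an SD of 0.30 on the log2 scale. It measured 9.16, 9.33, 6.60, 5.60 and 10.4 FPKM with oxonic acid and 7.55, 7.33, 6.48, 9.58 and 9.75 FPKM with vehicle. In each group some libraries were near 10 FPKM and others below 8, and the log2 difference was -0.0035 (SE 0.17). The mevalonate kinase Mvk measured 7.67 ± 1.58 and 7.59 ± 0.503 FPKM, and the next kinase, Pmvk, 8.46 ± 0.852 and 9.13 ± 0.907 FPKM (SD, n = 5 each). For Mvk the log2 difference was 0.15 within run B and 0.32 within run C. With the runs as a block it was 0.23 (limma unadjusted p = 0.0269, adjusted p = 0.733). The cytosolic thiolase Acat2, which makes acetoacetyl-CoA, had the most negative log2 difference of the 26, -0.14 (SE 0.14), at 6.57 ± 1.46 and 7.20 ± 1.09 FPKM. With the library number runs as a block its difference was 0.12, so no direction is given for it.

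The isomerase Idi1 and the farnesyl diphosphate synthase Fdps close the mevalonate steps. Idi1 measured 9.06 ± 1.21 and 9.22 ± 0.774 FPKM (log2 difference -0.029) and overlaps Wdr37 on the opposite strand, at a mean of 7.99 FPKM. Fdps measured 25.3 ± 0.752 and 27.2 ± 3.08 FPKM (log2 difference -0.095, SE 0.07; SD, n = 5 each). Fdps, Srebf2 and Hsd17b7 each overlap a short or nearly silent row (a U6 copy at 1.01, Mir33 at 0.377 and LOC100366054 at 0.0197 FPKM). The vehicle mean of Fdps was raised by library 4, at 32.1 FPKM, whereas the other 9 libraries ran from 23.8 to 27.4 FPKM.

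From squalene onward, 7 of 12 enzymes were higher and 5 lower, 1 of them at an unadjusted p under 0.05, with a median log2 difference of 0.044. That one was Lss, lanosterol synthase, which folds squalene epoxide into the first sterol of the route (ENSRNOG00000054549, chromosome 20, 12842884 to 12870497, minus strand in the deposited coordinates). Lss measured 6.21, 5.55, 5.87, 6.64 and 5.55 FPKM in oxonic acid libraries 1 to 5. In vehicle libraries 1 to 5 it measured 5.46, 4.94, 5.22, 4.77 and 4.75 FPKM. Every oxonic acid value lay above every vehicle value, but the gap between the nearest values, 5.55 and 5.46 FPKM, was small. The means were 5.96 ± 0.465 and 5.03 ± 0.308 FPKM (SD, n = 5 each). The log2 difference was 0.22 (SE 0.07, 95% interval 0.07 to 0.38, unadjusted p = 0.00956, adjusted p = 0.396). Within run B the difference was 0.32 and within run C it was 0.20, and leaving out 1 library at a time gave 0.19 to 0.25. With the runs as a block it was 0.27 (unadjusted p = 0.0111, adjusted p = 0.718). By unadjusted p, Lss stood at place 347 of the genes tested.

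The enzyme just before it, the squalene epoxidase Sqle, lay the other way in the main fit. Sqle measured 8.57, 6.52, 7.54, 7.82 and 7.74 FPKM with oxonic acid and 8.08, 9.66, 9.10, 8.14 and 7.25 FPKM with vehicle. Vehicle libraries 2 and 3 were highest and oxonic acid library 2 lowest, with the rest intermixed (log2 difference -0.14, SE 0.09, 95% interval -0.33 to 0.06, limma adjusted p = 0.635). The Sqle difference was -0.18 within run B and 0.010 within run C, and -0.090 with the runs as a block (limma unadjusted p = 0.461). Fdft1, whose product Sqle oxidises, had a log2 difference of 0.091 (SE 0.08), with oxonic acid libraries 1 and 4 highest at 46.4 and 48.2 FPKM and the other 8 between 37.1 and 43.1 FPKM.

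**Figure D3:**
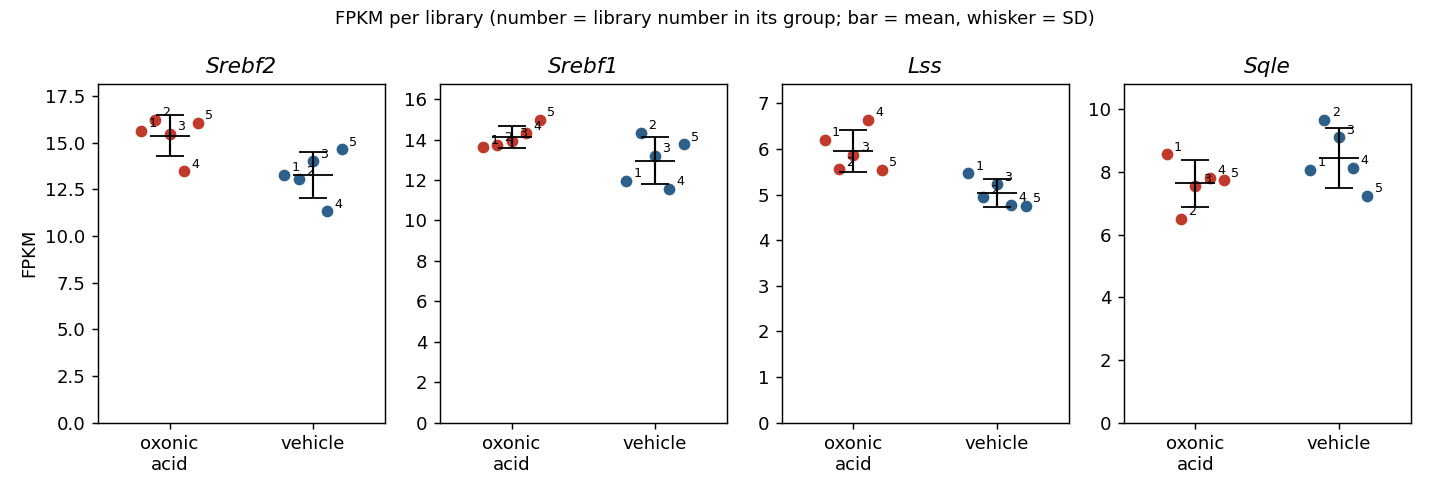
FPKM of Srebf2, Srebf1, Lss and Sqle in each library (points, numbered within the group), with the group mean (bar) and SD (whisker), n = 5 per group, axes starting at 0. For Lss the oxonic acid points lie above the vehicle points; for the other 3 genes the groups overlap.

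The enzymes that trim lanosterol differed little between the diets. Dhcr7, the reductase of the last step, had the next highest log2 difference after Lss and Srebf2, 0.19 (SE 0.11, 95% interval -0.05 to 0.43, limma adjusted p = 0.590). It measured 20.1, 17.1, 17.2, 12.8 and 18.4 FPKM with oxonic acid and 13.0, 14.7, 15.6, 15.9 and 14.9 FPKM with vehicle. Oxonic acid library 4 was the lowest of all 10, while the other 4 oxonic acid libraries exceeded every vehicle library. Within run B, where oxonic acid library 4 stands alone against 3 vehicle libraries, the difference was -0.17, and within run C it was 0.25. With the runs as a block it was 0.029.

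Cyp51, the lanosterol demethylase, measured 13.4 ± 1.58 and 13.2 ± 1.94 FPKM, and Msmo1, which begins removal of the paired methyl groups, 23.4 ± 2.80 and 22.1 ± 2.10 FPKM (SD, n = 5 each). Their log2 differences were 0.022 and 0.082. Nsdhl and Hsd17b7, which finish that removal, had log2 differences of -0.037 and 0.082. The Hsd17b7 value leaned on vehicle library 4, at 1.16 FPKM against 1.70 FPKM or more in every other library, and without that library it was -0.033. The isomerase Ebp and the desaturase Sc5d had log2 differences of -0.060 (SE 0.07) and 0.067 (SE 0.06).

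Sterol reductase activity on the ring just after demethylation can come from Tm7sf2 or from Lbr, which is also a lamin receptor of the nuclear envelope. Tm7sf2 measured 10.1 ± 1.04 and 10.3 ± 0.866 FPKM and overlaps Vps51 on the same strand (mean 21.5 FPKM), so its counts are uncertain. Lbr measured 12.98 ± 0.805 and 13.0 ± 0.642 FPKM (SD, n = 5 each). The ratio of Tm7sf2 to Lbr within a library was 0.786 ± 0.117 with oxonic acid and 0.794 ± 0.0753 with vehicle (exact permutation p = 0.833; all 3 ratios were tested two-sided). Insig1 to Insig2 stood at 1.28 ± 0.160 and 1.301 ± 0.219 (exact permutation p = 0.929), and Srebf1 to Srebf2 at 0.922 ± 0.0838 and 0.979 ± 0.0793 (exact permutation p = 0.254). Over these 3 ratios the adjusted p was 0.762 to 0.929, where 252 arrangements allow a smallest raw p of 0.00794.

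Both genes of sterol transfer and storage had overlapping groups and slightly higher means with oxonic acid, by amounts that 1 library could remove. Stard4, a sterol carrier of the cytosol and an SREBP target, measured 7.67 ± 0.742 and 7.16 ± 1.38 FPKM (SD, n = 5 each), a log2 difference of 0.11 (SE 0.12). Its vehicle libraries held both ends of the range, 5.27 FPKM in library 4 and 9.03 FPKM in library 5, and without library 4 the difference was 0.011, without library 5 0.19. Soat1, which esterifies cholesterol for storage in droplets, measured 21.9 ± 2.00 and 21.0 ± 1.31 FPKM (log2 difference 0.054, SE 0.07). Without oxonic acid library 4 it was 0.0093, and it was 0.19 within run B and -0.016 within run C.

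Library to library variation in several members exceeded the difference between diets and ran in parallel. Hmgcs1 was taken as the reference and its log2 values over the 10 libraries were compared with those of the other 14507 genes tested, a comparison added after the values had been seen. The gene most like Hmgcs1 among all 14507 was Cyp51 (Pearson r = 0.927, permutation p = 2.7e-04; Spearman rho = 0.855). Mvd ranked at place 21 (r = 0.833, permutation p = 0.00323; rho = 0.806), Msmo1 at 24 (r = 0.829, permutation p = 0.00337; rho = 0.709) and Insig1 at 55 (r = 0.797, permutation p = 0.00559; rho = 0.721), so 4 of 25 members lay among the first 100 genes. Dhcr7 followed at place 292 (r = 0.675, permutation p = 0.0318; rho = 0.685). None passed after adjustment over the 14507 genes (adjusted p = 0.580 for Cyp51, 0.592 to 0.699 for the other 4; 0.579 to 0.584 for rho). In all, r exceeded 0.5 for 5 of 25 members, against 8.29% of all genes compared.

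The libraries farthest from the median of Hmgcs1 were oxonic acid library 4 and vehicle library 5. Without both, r with Hmgcs1 was 0.881 for Cyp51, 0.740 for Mvd, 0.899 for Msmo1, 0.550 for Insig1 and 0.918 for Dhcr7. Taken as deviations from the group means, r was 0.927, 0.837, 0.841, 0.803 and 0.726 in that order. All values come from the same 10 libraries and share their scaling, and the runs of 3, 4 and 3 libraries are too small for an r of their own. Srebf2 itself reached r = 0.469 (permutation p = 0.172, adjusted p = 0.832; rho = 0.552; 0.534 without the 2 libraries).

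Other members of the route did not follow Hmgcs1. Sqle had r = -0.280 (permutation p = 0.436), Lss r = -0.319 (permutation p = 0.366), Fdft1 r = -0.448 (permutation p = 0.193) and Soat1 r = -0.551 (permutation p = 0.0988), with rho of -0.370, -0.224, -0.479 and -0.564 and adjusted p of 0.785 to 0.926. Without the 2 extreme libraries r was -0.259, 0.516, 0.036 and -0.243, so the values of Lss, Fdft1 and Soat1 rested on those libraries and that of Sqle moved little. As deviations from the group means, r was -0.268 for Sqle, -0.671 for Lss, -0.515 for Fdft1 and -0.600 for Soat1. Oxonic acid library 4 held the lowest value of the 10 for 5 members (Hmgcs1, Mvd, Idi1, Dhcr7 and Insig1) and the highest for 3 (Fdft1, Lss and Soat1). Vehicle library 5 held the highest value for 7 (Acat2, Hmgcs1, Cyp51, Nsdhl, Insig1, Scap and Stard4) and the lowest for 2 (Lss and Tm7sf2). In vehicle library 4, 7 members were at their lowest, among them Srebf1, Srebf2 and Stard4, and 2 (Pmvk and Fdps) were at their highest. That library was not low for the members as a whole, as 16 of 26 members and 13 of 19 enzymes were above their own median there. Counted over the route, enzymes above their own median ran from 6 of 19 in oxonic acid library 4 to 14 of 19 in oxonic acid library 1. Over all genes tested that share was 48.7% to 50.6% in any library. Cutting each gene at its own median, with library scaling equalised, fixes the share of all genes in advance. It is thus no measure of how far 19 genes can stray, and the counts were not tested.

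**Figure D4:**
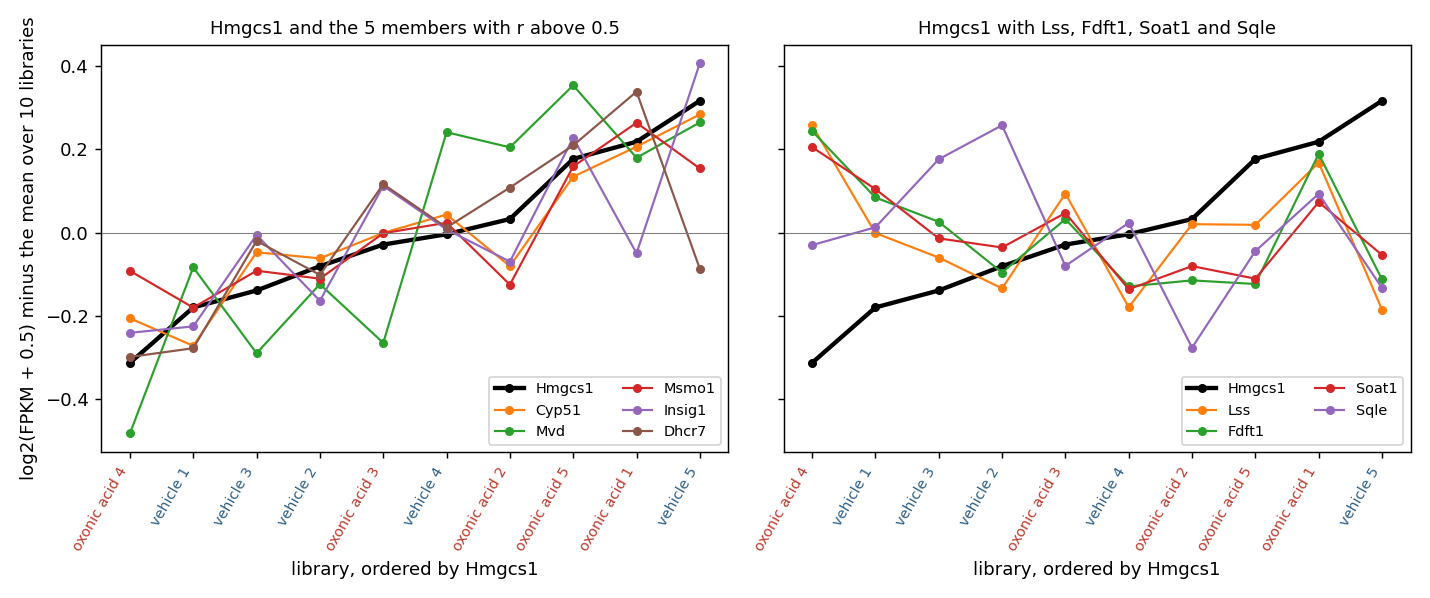
Log2(FPKM + 0.5) minus its mean over 10 libraries, with libraries ordered by Hmgcs1 (black line) and named in red for oxonic acid and blue for vehicle. On the left, Cyp51, Mvd, Msmo1, Insig1 and Dhcr7 climb with Hmgcs1 through libraries of both diets; on the right, Lss, Fdft1 and Soat1 are highest in oxonic acid library 4, where Hmgcs1 is lowest.

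Around the route, the other genes of sterol handling were also close to their vehicle levels, and 0 of them passed limma's threshold after adjustment. Of 11 tested genes for SREBP processing and sterol-regulated degradation, 8 were higher and none had an unadjusted p under 0.05 (median log2 difference 0.058). The site-1 protease gene Mbtps1, which makes the first cut in SREBP, measured 29.2 ± 0.823 and 27.5 ± 1.40 FPKM (SD, n = 5 each), a log2 difference of 0.085, and the ubiquitin ligase Rnf145 and the membrane scaffold Erlin2 had log2 differences of -0.091 and 0.078. In the nonsterol branch, 7 of 14 were higher (median -0.011). At an unadjusted p under 0.05, 1 of the 14 was higher, against 4.32% of all genes tested, again too few to be a result about the list. There Icmt, which methylates prenylated proteins, had a log2 difference of 0.14 (unadjusted p = 0.0362, adjusted p = 0.496), and Ggps1 and Nus1 had 0.12 and -0.076.

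Of 11 tested genes for efflux, uptake and liver X receptor signalling, 5 were higher (median -0.022). At an unadjusted p under 0.05, 1 was lower, against 5.17% of all genes tested, a count too small to be a result about the list. The gene lower at that p was Npc2, which moves cholesterol out of lysosomes, at 97.6 ± 5.88 and 111.4 ± 5.89 FPKM (SD, n = 5 each; log2 difference -0.19, SE 0.06, unadjusted p = 0.00561, adjusted p = 0.370). The Npc2 difference was -0.12 with the runs as a block (limma adjusted p = 0.746). The lipoprotein receptor Scarb1 and the acyltransferase Lpcat3 had log2 differences of -0.20 and 0.11. Oxysterol genes (2 of 6 higher, median -0.065) were led by p by Sult2b1, at 0.21, with Ch25h at -0.21 and Hsd3b7 at -0.13, and intracellular sterol transfer genes (4 of 8 higher, median -0.00063) by Tspo, at -0.16, with Cav1 at 0.15 and Gramd1c at 0.20. None of these reached an unadjusted p under 0.05 in the main fit. Log2 differences with the runs as a block were -0.23 for Scarb1 and 0.077 for Lpcat3. For Sult2b1, Ch25h and Hsd3b7 they were 0.053, -0.32 and -0.086, and for Tspo, Cav1 and Gramd1c -0.054, 0.10 and -0.13.

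The fatty acid genes that SREBP1 drives showed larger values, with a median log2 difference of 0.17. Of 10 tested, 9 were higher, against 51.8% of all genes tested. At an unadjusted p under 0.05, 3 of them were higher, against 4.32% of all genes tested. These 3 were Elovl5 (0.18, adjusted p = 0.333), Acly, which makes the acetyl-CoA that both routes use (29.6 ± 0.691 and 27.0 ± 1.72 FPKM, SD, n = 5 each; 0.13, adjusted p = 0.484), and Fasn (10.8 ± 0.863 and 9.37 ± 1.02 FPKM; 0.20, adjusted p = 0.511). With the runs as a block they stood at 0.19, 0.12 and 0.20 (limma adjusted p = 0.718 to 0.752). Whether SREBP1 had a part in these values was not tested.

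Markers of several cell types had different levels in the groups as well, though 0 in any list passed the adjusted p, and their part in the Srebf2 and Lss values was not tested. The counts at an unadjusted p under 0.05 stand against 4.32% of all genes tested that were higher and 5.17% that were lower at that p. Macrophage markers were lower in 6 of 6 tested, 3 of them at an unadjusted p under 0.05, and their summed level ran from 92.0 to 114.2 FPKM with oxonic acid and from 115.01 to 148.7 FPKM with vehicle. Injured tubule markers were lower in 5 of 6, 4 of them at that p, with a summed level of 783 to 1563 FPKM and 1369 to 3290 FPKM. Principal cell markers of the collecting duct were higher in 6 of 6, 3 at that p, at 340.6 to 451.6 FPKM and 254.5 to 351.5 FPKM. Fibroblast markers were lower in 5 of 6, 2 at that p (151.4 to 205.4 FPKM and 181.4 to 258.9 FPKM), and T cell markers in 4 of 5, 3 at that p (8.14 to 12.3 FPKM and 8.81 to 14.3 FPKM), while the fifth, Cd28, was higher at that p (log2 difference 0.49). Higher at that p were 1 of 3 distal convoluted tubule, 2 of 6 intercalated cell and 1 of 4 endothelial markers tested, against 0 of 4 thick limb and 0 of 5 podocyte markers, and 1 of 3 liver markers was lower. Of 5 inner medulla markers 1 was higher and 1 lower at that p. The summed level of markers of the proximal tubule, the main cortical segment, ran from 3141 to 4054 FPKM and from 2907 to 4017 FPKM. No marker in these lists was at 0 in all libraries. The adrenal cortex, a neighbouring tissue rich in cholesterol synthesis, left little signal. Its 7 markers in the table summed to 3.17 to 5.52 FPKM with oxonic acid and 3.42 to 5.36 FPKM with vehicle. Star reached at most 1.17 FPKM and Cyp11b2 at most 0.0683 FPKM. Most of the sum was Cyp11a1, which ran from 1.62 to 4.49 FPKM and was highest in vehicle library 5. Its bearing on the members was not tested. Adipose markers summed to 17.9 to 34.6 FPKM and 13.4 to 33.2 FPKM, with overlapping groups. Most of that sum was Cidec, at 8.54 to 28.9 FPKM, whereas Plin1 averaged 0.123 FPKM. Likewise Spp1, at 637 to 2986 FPKM, made up most of the injured tubule sum, and Slc34a1, at 1441 to 2021 FPKM, much of the proximal sum. Summed levels thus largely follow their most abundant gene.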

How the data were processed

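Kidney cortex RNA was measured in 10 libraries by poly-A sequencing. Per the submitters' processing notes, featureCounts 1.5.0-p3, StringTie 1.3.3b, HISAT2 2.0.5 and fastp were used; neither build, annotation nor strandedness was named. The deposited values are FPKM, 1 column per library, computed by the authors; FPKM times gene length stepped in units worth 1 read, and 100% of values came out whole to within 0.01, and the deposited scaling already equalised the median ratio of libraries, so it was kept. FPKM is relative to the other genes of a library, and here to their median ratio, so it gives no absolute amount of RNA. Mitochondrial genes took 12.6% ± 0.773 of reads with oxonic acid and 11.2% ± 1.14 with vehicle (SD, n = 5 each).

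Genes averaging 0.5 FPKM or more were tested on log2(FPKM + 0.5) with limma 3.58.1 (mean-variance trend, two-sided) in R 4.3.3, with Benjamini-Hochberg adjustment over all 14508. Differences are on that scale and understate low genes. Reads of the 14508 genes were simulated with 200 genes changed per draw, at mixed sizes. The test then called 53.4% of genes changed 1.5-fold, 79.4% at 2-fold and 93.6% at 4-fold. As these shares depend on that mix, they are not the power of the comparison made here. Ratios used exact permutation, correlations 100000 permutations. Python 3.11.15 and matplotlib 3.10.9 were used.

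The members, lists, ratios and motifs were chosen with earlier results of these data known. Every member is named; values per library are given for those with an unadjusted p under 0.05 or groups that do not overlap, for Insig1, Hmgcs1, Sqle, Srebf1 and Srebf2, and, added after values were seen, for Mvd and Dhcr7; up to 3 genes with the smallest p are named per pathway list. Alternatives tried were pseudocounts of 0.1 and 1, no filter and a mean of 1 FPKM, scaling to summed reads with and without mitochondrial genes, voom, library weights, blocks, and leaving out libraries.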

Additional observations from a re-analysis of the deposited data

Results flagged for a closer look

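In 2 of the 52 groups of 5 values (26 genes in 2 groups), 1 library lay far from the other 4, its gap to the nearest being over 0.71 of the group's whole range; such a gap arises by chance in about 1 of 20 groups. For Lbr, vehicle library 2 was low, at 11.88 FPKM against 13.1 to 13.4 FPKM in the other vehicle libraries. For Srebf2, oxonic acid library 4 was low, at 13.5 FPKM against 15.5 to 16.2 FPKM in the other oxonic acid libraries, and without it the log2 difference of Srebf2 was 0.25 (limma adjusted p = 0.375).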

How the results depend on the processing

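In the 22 fits with a test, 0 called any of the 26 members, the lowest adjusted p being 0.337, for Lss without vehicle library 1. Over all genes, 1 was called with library quality weights (Tap2), and leaving out 1 library gave 0 to 1 (SNORA3 without vehicle library 1). For 14 members the sign was the same in every such fit. The other members changed sign, and none of them had been called; the cause was not tested. With the library number runs as a block, log2 differences were 0.12 for Acat2, -0.086 for Hmgcs1, 0.23 for Mvk, -0.056 for Cyp51, 0.048 for Lbr and -0.13 for Gramd1c. With quality weights they were 0.025 for Mvk, 0.091 for Mvd, -0.031 for Hsd17b7 and 0.050 for Insig1. Without vehicle libraries 4 and 5, left out after seeing the data, they were 0.050 for Mvk, 0.16 for Mvd, 0.014 for Lbr, 0.0077 for Nsdhl, -0.089 for Hsd17b7 and 0.13 for Insig1. Scaled to summed reads, Cyp51 was at -0.011 and Insig2 at -0.027, and -0.0046 without mitochondrial reads; that scaling moved the median of all genes to -0.026 and the members' median to -0.019, with 12 higher. Leaving out 1 library at a time gave ranges of -0.016 to 0.12 for Hmgcs1, -0.11 to 0.062 for Mvk, -0.092 to 0.12 for Mvd, -0.091 to 0.023 for Idi1, -0.044 to 0.095 for Cyp51, -0.079 to 0.0054 for Tm7sf2, -0.039 to 0.013 for Lbr, -0.060 to 0.012 for Nsdhl, -0.033 to 0.14 for Hsd17b7, -0.066 to 0.093 for Insig1 and -0.044 to 0.048 for Insig2. The log2 ratio difference then ran from -0.12 to 0.067 for Insig1 to Insig2 and from -0.094 to 0.042 for Tm7sf2 to Lbr. In the 100 bases before the start, CCAAT was in 56.5% and GGGCGG in 52.2% of member promoters. For CCAAT this stood against 19.01% of promoters of genes tested and 17.07% of all promoters. For GGGCGG it stood against 41.99% and 21.63%, so the share in members lay closer to that of genes tested than for CCAAT. These shares were not tested either. Same-numbered libraries did not deviate together (correlations of -0.013 to 0.20, 1 of 5 closest to its own number); with the replicate number as a block 0 genes were called, with 1445 at an unadjusted p under 0.05, Srebf2 stood at 0.21 (adjusted p = 0.362), and Lss at 0.22 (adjusted p = 0.434). With the library number runs as a block 971 genes, against 1377, had an unadjusted p under 0.05; the 2 members among them were Lss and Mvk, and Srebf2 was not (0.15, adjusted p = 0.800). With 5 libraries a group, differences under about 1.25-fold could not be resolved for the noisier members. After adjustment over all genes larger ones can be missed too. In the simulated reads 53.4% of genes changed 1.5-fold were called, but that share depends on the simulated mix and is not the power here.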
